A study of Mus musculus with 36 samples.

Results

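The comparison described here is between 8 mouse expression arrays of the first of 2 experiments with VDH15, a human oral carcinoma cell line: 4 arrays from tumours of mice on a palmitate-rich diet and 4 from tumours of mice on the control diet. They were chosen by their labels, not by any measured value, from the 36 arrays of the series, and they are described over 12823 mouse genes. The VDH15 cells carried a non-targeting PLKO shRNA vector and were grown orthotopically in NOD-SCIDγ (NSG) mice, an immunodeficient strain without mature T, B and natural killer cells. The tumour stroma was separated and its neural fraction was used, with RNA isolated on magnetic beads and amplified before hybridisation. A further group of the same experiment, 4 arrays from an oleate-rich diet with the same vector, is given beside the palmitate values, and the non-targeting control and palmitate arrays of a second VDH15 experiment (3 a diet) and of an experiment with SCC25, another human oral carcinoma line (3 a diet), serve for tests of the difference. Neither the age and sex of the mice nor the length of the diet is stated in the labels used.

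The labels give each diet 1 biological replicate and name its 4 arrays technical replicates, and they do not say whether the arrays came from separate mice, separate tumours or 1 RNA sample. The p-values below therefore measure the spread between arrays only, and diet cannot be told apart from any other difference between the single biological replicates. Values are log2 intensities as deposited, and one unit of difference is a doubling. A gene was called when its adjusted p from limma, which fits every gene and shares their spread, was below 0.05 over all 12823 genes. Arrays are numbered as in the labels, and the median intensity of an array lay between 5.98 and 6.04 over the whole series. Nothing here separates fewer cells of a type from less RNA per cell.

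Palmitate is the most common saturated fatty acid of the diet, and oleate is the monounsaturated one it is usually set against. The stroma of an oral tumour holds peripheral nerve with its Schwann cells, the glia that wrap axons, next to fibroblasts, blood and lymphatic vessels, immune cells and the squamous epithelium of the mouth. A Schwann cell is recognised by Sox10 and by myelin genes, and after nerve injury it can turn to a repair state that secretes growth factors and matrix. The study is known for asking whether dietary palmitate changes these tumour-associated nerve cells.

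Markers of the labelled fraction and of other cell types were read first. Sox10, the transcription factor that defines Schwann cells, read 6.74, 6.95, 6.90 and 6.69 in the control arrays and 6.78, 6.87, 6.80 and 6.97 in the palmitate arrays, so that the groups overlapped. Of 9 Schwann cell markers, 6 had a probe set and 2 of these lay below 5.19, the level under which genes were not tested, in both groups. The sum of those 6 markers ranged from 39.99 to 41.24 over control arrays and from 36.17 to 39.96 over palmitate arrays, ranges that came close without overlapping. Among the 6 is Erbb3, which epithelium also makes and which was lower by -1.59, so the lower sum is not a measure of Schwann cells alone. The 8 neuron markers, with 3 of them below 5.19 in control and 4 in palmitate arrays, summed to between 43.68 and 44.87 and between 42.11 and 43.81. The 7 endothelial markers summed to between 60.15 and 64.59 in control and 69.63 and 74.59 in palmitate arrays, the 8 fibroblast markers to 69.33 to 73.20 and 74.24 to 78.93, the 7 macrophage markers to 38.04 to 41.47 and 45.79 to 50.48, and the 6 keratinocyte markers with a probe set to 59.76 to 60.80 and 54.88 to 58.22. None of these 4 ranges overlapped between diets. By group mean, 3 of the macrophage markers lay below 5.19 in control and 1 in palmitate arrays. For the fibroblast markers the counts were 2 and 0, for the keratinocyte markers 1 and 1, and for the endothelial markers 0 and 0. Among the keratinocyte markers Krt5 and Krt14 did not pass the test, so the lower sum is not a fall of every marker. The part of these cell types in the changes of single genes was not tested.

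Across all genes, 4908 of 12823 passed the test (38.3%), 2131 of them higher with palmitate (16.6%) and 2777 lower (21.7%). In 5168 genes (40.3%) the 4 palmitate arrays lay wholly above or wholly below the 4 control arrays. The median difference over all genes was -0.04. The changes over 1 log2 leaned the other way from the counts, with 624 called genes higher and 358 lower.

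The 4 palmitate arrays did not respond alike. Palmitate array 1 held 1030 genes more than 1 log2 above the control mean and 791 more than 1 log2 below it, and array 2 held 948 and 748. In arrays 3 and 4 the same counts were 286 and 118, and 367 and 110. Arrays 1 and 2 were scanned in different batches, 2 and 3, and each of both batches held 2 control and 2 palmitate arrays. The 4 oleate arrays had between 32 and 71 such genes in both directions together. The median SD of a gene was 0.15 over the palmitate arrays, 0.10 over the control arrays and 0.09 over the oleate arrays. With arrays 3 and 4 alone set against the 4 control arrays, 3950 genes were called, and 3615 of the 4908 were called again with the same sign. The size of the change was smaller there: of the 624 genes called more than 1 log2 higher, 301 stayed above 1, and of the 358 called more than 1 log2 lower, 102 stayed below -1. Arrays 1 and 2 differed from arrays 3 and 4 by more than 1 log2 in 136 of those 624 genes and in 198 of those 358. Many of the gene lists below are therefore given array by array or with their count in arrays 3 and 4 alone. Where neither is given, the count of a list rests on all 4 palmitate arrays and was not set against this split. Every count of called genes in a list stands against 16.6% called higher and 21.7% called lower over all genes.

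**Figure D1:**
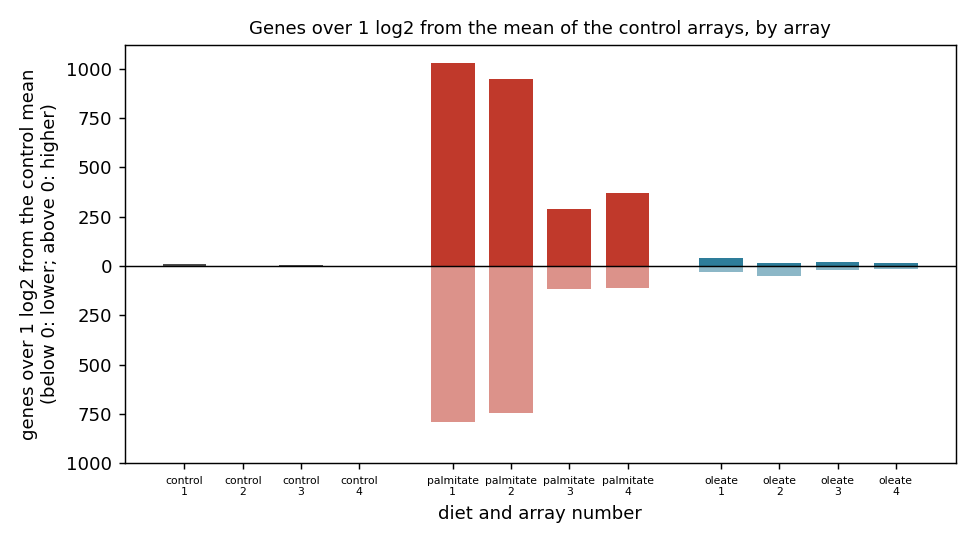
Number of genes more than 1 log2 above (upward bars) or below (downward, paler bars) the mean of the 4 control arrays, for each control, palmitate and oleate array of the first VDH15 experiment. Palmitate arrays 1 and 2 reach 1030 and 948 genes above and 791 and 748 below, arrays 3 and 4 stay at or under 367 above and 118 below, and no control array exceeds 9.

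Genes of macrophages and other myeloid cells rose. Of 17 tested genes of this list, 13 were higher and 1 lower, with a median of 0.92 against -0.04 for all genes, and in arrays 3 and 4 alone the count was again 13 higher and 1 lower. The median of the list by palmitate array was 1.37, 0.84, 0.42 and 0.89 above the control mean. Ctss, a lysosomal cysteine protease of antigen-presenting cells, had the largest rise among all genes whose groups did not overlap. It read 5.06, 5.78, 7.17 and 5.71 in the control arrays and 8.77, 9.38, 8.21 and 9.21 in the palmitate arrays, a difference of 2.96 ± 0.43 (SE, n = 4 and 4 arrays) or 7.80-fold (limma adjusted p = 0.0020). All 4 palmitate arrays lay above the highest control array, control array 3. Lyz2, the lysozyme of macrophages and neutrophils, read 5.24, 6.52, 7.43 and 5.54 in control and 8.97, 8.94, 9.09 and 9.37 in palmitate arrays. The palmitate arrays were tight and the control arrays were spread over more than 2 log2, with array 3 again the highest, and the difference was 2.91 ± 0.43. Its probe set is of a type that can bind related transcripts.

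Mrc1, the mannose receptor of tissue macrophages, rose from 7.30, 7.20, 6.42 and 6.42 to 10.04, 9.55, 8.61 and 8.87, a difference of 2.43 ± 0.34. Both arrays 1 and 2 were higher than arrays 3 and 4, by 1.06 on average. C1qc, a chain of the first complement component made largely by macrophages, read 5.33, 5.49, 5.30 and 5.34 in control arrays and 7.16, 6.77, 6.79 and 6.96 in palmitate arrays, 1.55 ± 0.10 higher (limma adjusted p = 0.00017), with palmitate arrays close together. C1qb, another chain, was 1.95 ± 0.29 higher, with palmitate arrays at 7.54, 6.28, 6.71 and 7.39. Cd14, the coreceptor for bacterial lipopolysaccharide, was 1.61 ± 0.18 higher. In the oleate arrays, which share the control arrays, C1qc differed from control by -0.05 and Cd14 by 0.76. Itgb2, the shared beta chain of leukocyte integrins, and Tyrobp, a signalling adaptor of myeloid cells, were chosen after their values were seen. Itgb2 read 8.33, 8.33, 8.33 and 9.29 in palmitate arrays against 5.90 to 6.73 in control arrays, and Tyrobp read 7.20, 7.75, 6.88 and 8.59 against 4.78 to 6.03. In both genes palmitate array 4 was the highest, unlike in Mrc1.

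Lysosomal proteases other than Ctss moved less. Of 13 tested cathepsin and lysosome genes, 6 were higher and none lower (7 and 0 in arrays 3 and 4 alone), with a median of 0.26. Ctsl was 0.62 ± 0.07 higher and Ctsz 0.63 ± 0.10 higher. Ctsk, a collagen-degrading cathepsin, was 1.58 ± 0.30 higher, with 9.97 and 9.92 in palmitate arrays 1 and 2 against 9.03 and 8.86 in arrays 3 and 4. Among 12 antigen presentation genes, 5 were higher and 1 lower (4 and 1 in arrays 3 and 4 alone). The class II gene H2-Ab1 read 9.62, 9.69, 8.89 and 10.04 in palmitate arrays and 7.76 to 8.15 in control arrays, 1.59 ± 0.22 higher, and Cd74, the class II chaperone, was 1.01 ± 0.16 higher. The immunoproteasome gene Psmb9 was lower by -0.33 ± 0.08.

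Other immune lists gave few calls, where 16.6% of all genes were called higher and 21.7% lower. Of 7 neutrophil genes 2 were higher: Lcn2, which is also made by epithelium, by 1.19 ± 0.13, and S100a9, by 1.08 ± 0.36, with 9.25 in palmitate array 4 and 7.39 to 8.16 in the other palmitate arrays. Csf3r, a receptor that defines neutrophils, differed by 0.33 ± 0.19 without passing the test (limma adjusted p = 0.21). Of 10 lymphocyte genes 2 were higher. Cd3e, a chain of the T cell receptor complex, read 5.44, 5.71, 5.56 and 5.91 in control arrays and 7.96, 6.54, 7.46 and 6.56 in palmitate arrays, 1.48 ± 0.31 higher. The summed level of 5 lymphocyte markers, Cd3e among them, was 25.51 to 26.28 in control and 26.78 to 28.32 in palmitate arrays. Of these markers 2 lay below the 5.19 level in control and 3 in palmitate arrays, and their median went from 5.19 to 4.99. Mice of this strain lack mature T, B and natural killer cells, and the source of the Cd3e signal was not tested. The other gene called higher was Cd2, by 0.51 ± 0.14 from a control mean of 4.92, below the 5.19 level, while Cd8a was -0.21 ± 0.08 and did not pass. Of 3 mast cell genes tested, Hdc, the histamine-forming enzyme, was 1.11 ± 0.19 higher and the mast cell proteases Tpsb2 and Cma1 did not pass, Tpsb2 with a difference of 0.02 ± 0.06.

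Endothelial genes rose, with the largest share of genes called higher among the lists of at least 10 genes. Of 24 tested, 22 were higher and none lower, with a median of 1.34, and 22 were again higher in arrays 3 and 4 alone, with a median of 0.98. The median of the list was 1.75, 1.64, 1.05 and 0.94 in the 4 palmitate arrays. It was 0.74, 0.74, 0.63 and 0.59 in the oleate arrays, which share the control arrays with palmitate. The largest difference was in a gene of lymphatic vessels. Prox1, the transcription factor that sets lymphatic identity, read 8.25, 8.04, 7.60 and 7.79 in control and 10.41, 10.34, 10.23 and 10.01 in palmitate arrays, 2.33 ± 0.15 higher or 5.02-fold (limma adjusted p = 0.00019). The 4 palmitate arrays lay close together, and the oleate arrays lay between both diets, at 8.55, 8.80, 8.34 and 8.88. Flt4, the receptor for the lymphatic growth factor VEGF-C, read 9.32, 9.52, 9.16 and 9.07 in control and 11.60, 11.48, 10.90 and 10.97 in palmitate arrays, 1.97 ± 0.18 higher. Tie1, an angiopoietin coreceptor of blood and lymphatic vessels, and Egfl7, a secreted vessel protein, were both 1.55 higher, with SE 0.15 and 0.19. Lyve1, the hyaluronan receptor of lymphatic endothelium, rose less, by 0.58 ± 0.07.

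Calcrl, which with Ramp2 forms the adrenomedullin receptor of lymphatic and blood endothelium, was 2.01 ± 0.27 higher, while Ramp2 differed by 0.07 ± 0.05 and did not pass (limma adjusted p = 0.29). Several guidance genes known from both axons and vessels were higher. Nrp2, a coreceptor for semaphorins and VEGF-C, was 1.12 ± 0.13 higher, and the netrins Ntn1 and Ntn4 were 1.71 ± 0.14 and 1.00 ± 0.10 higher. Klf2, a flow-responsive endothelial transcription factor, rose by 0.83 ± 0.09, while the other 24 immediate early and heat shock genes gave 8 lower and none higher, among them Jun, lower by -0.51 ± 0.12. In arrays 3 and 4 alone 4 of these were lower. Heyl, a Notch target of vessel wall cells, read 6.18, 6.19, 6.88 and 6.79 in control and 9.75, 9.84, 7.76 and 7.74 in palmitate arrays, 2.26 ± 0.52 higher, with arrays 1 and 2 on average 2.04 above arrays 3 and 4. Of 11 pericyte and smooth muscle genes tested, 3 were higher and 1 lower, with a median of 0.06. Myh11, the smooth muscle myosin, was 0.92 ± 0.14 higher. Rgs5, a marker of pericytes, read 8.49, 6.98, 7.56 and 5.83 in palmitate arrays around 7.97 to 8.21 in control arrays and did not pass (limma adjusted p = 0.17).

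Connective tissue genes rose as well, and in these the palmitate arrays were uneven. Of 18 fibroblast genes 13 were higher and 1 lower (12 and none in arrays 3 and 4 alone), with medians by palmitate array of 1.15, 1.09, 0.55 and 0.73. Fap, the serine protease of activated fibroblasts, read 7.02, 5.91, 6.24 and 6.68 in control and 9.67, 9.54, 7.97 and 7.69 in palmitate arrays, 2.25 ± 0.48 higher (1.36 in arrays 3 and 4 alone). Cdh11, a cadherin of mesenchymal cells, read 5.57, 5.36, 5.30 and 5.73 in control and 8.98, 8.48, 6.95 and 6.62 in palmitate arrays, 2.27 ± 0.49 higher. On average arrays 1 and 2 lay 1.78 above arrays 3 and 4 in Fap and 1.94 above them in Cdh11. Among the proteoglycans 7 of 12 were higher and none lower (5 and none in arrays 3 and 4 alone). The small proteoglycan Lum was 1.55 ± 0.24 higher, with palmitate arrays at 8.90, 8.67, 8.26 and 8.51, and Dcn, which binds collagen fibrils, was 0.73 ± 0.11 higher with palmitate arrays between 11.40 and 11.73. The median of the fibroblast list was negative in every oleate array, from -0.44 to -0.14.

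The matrix lists moved with the fibroblast genes. All 18 tested collagen maturation enzymes had positive differences, and 16 of them were called higher, with medians of 1.52, 1.42, 0.62 and 0.54 in the 4 palmitate arrays. Lox, the collagen cross-linking enzyme, was 1.36 ± 0.23 higher, Plod1, a collagen lysyl hydroxylase, 1.23 ± 0.18, and Pcolce, which speeds procollagen cleavage, 1.47 ± 0.23. Matrix glycoproteins gave 18 of 21 higher and none lower, with Mfap4, an elastic fibre protein, 1.50 ± 0.17 and the basement membrane protein Nid1 1.47 ± 0.19 higher. Of 20 matrix proteases and inhibitors 14 were higher and 1 lower. The inhibitors Timp1, Timp2 and Timp3 rose by 1.18, 1.39 and 1.34, and Adamts5, an aggrecanase, by 1.05 ± 0.10 with all 4 palmitate arrays between 8.92 and 9.20. In arrays 3 and 4 alone these 3 lists gave 14, 16 and 13 genes higher.

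Collagens themselves were less uniform, with 15 of 26 higher and 4 lower (12 and 2 in arrays 3 and 4 alone). The transmembrane collagen Col23a1 had the smallest p: 7.40, 7.45, 7.03 and 7.02 in control and 9.61, 9.63, 9.01 and 9.10 in palmitate arrays, 2.11 ± 0.18 higher. The main fibrillar collagens changed little, Col1a1 by 0.50 ± 0.10 and Col3a1 by 0.34 ± 0.09. Col6a3, a chain of microfibrillar collagen VI, read 11.93 and 11.91 in palmitate arrays 1 and 2, 10.23 and 10.15 in arrays 3 and 4, and 9.76 to 10.25 in control arrays, and did not pass (1.08 ± 0.43, limma adjusted p = 0.0802). Arrays 3 and 4 were inside the control range, and arrays 1 and 2 were above it. Among mesenchymal transcription factors 13 of 16 were higher and 2 lower (12 and 1 in arrays 3 and 4 alone). Zeb1, a repressor of epithelial genes, rose by 1.47 ± 0.19, and Zfp521, a zinc finger factor of mesenchymal progenitors, by 2.28 ± 0.24. Snai2, which acts like Zeb1 on epithelial genes and is also a basal keratinocyte factor, was lower by -0.98 ± 0.10, with 7.76 to 8.12 in control and 6.75 to 7.03 in palmitate arrays. The oleate arrays of Snai2 lay on the other side of the same control, at 8.36 to 8.85. Of 22 TGF-beta genes 13 were higher and 3 lower. Ltbp2 and Tgfb3 rose by 1.82 ± 0.24 and 1.74 ± 0.23, and Smad7, the feedback inhibitor of the pathway, was lower by -0.74 ± 0.10.

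**Figure D2:**
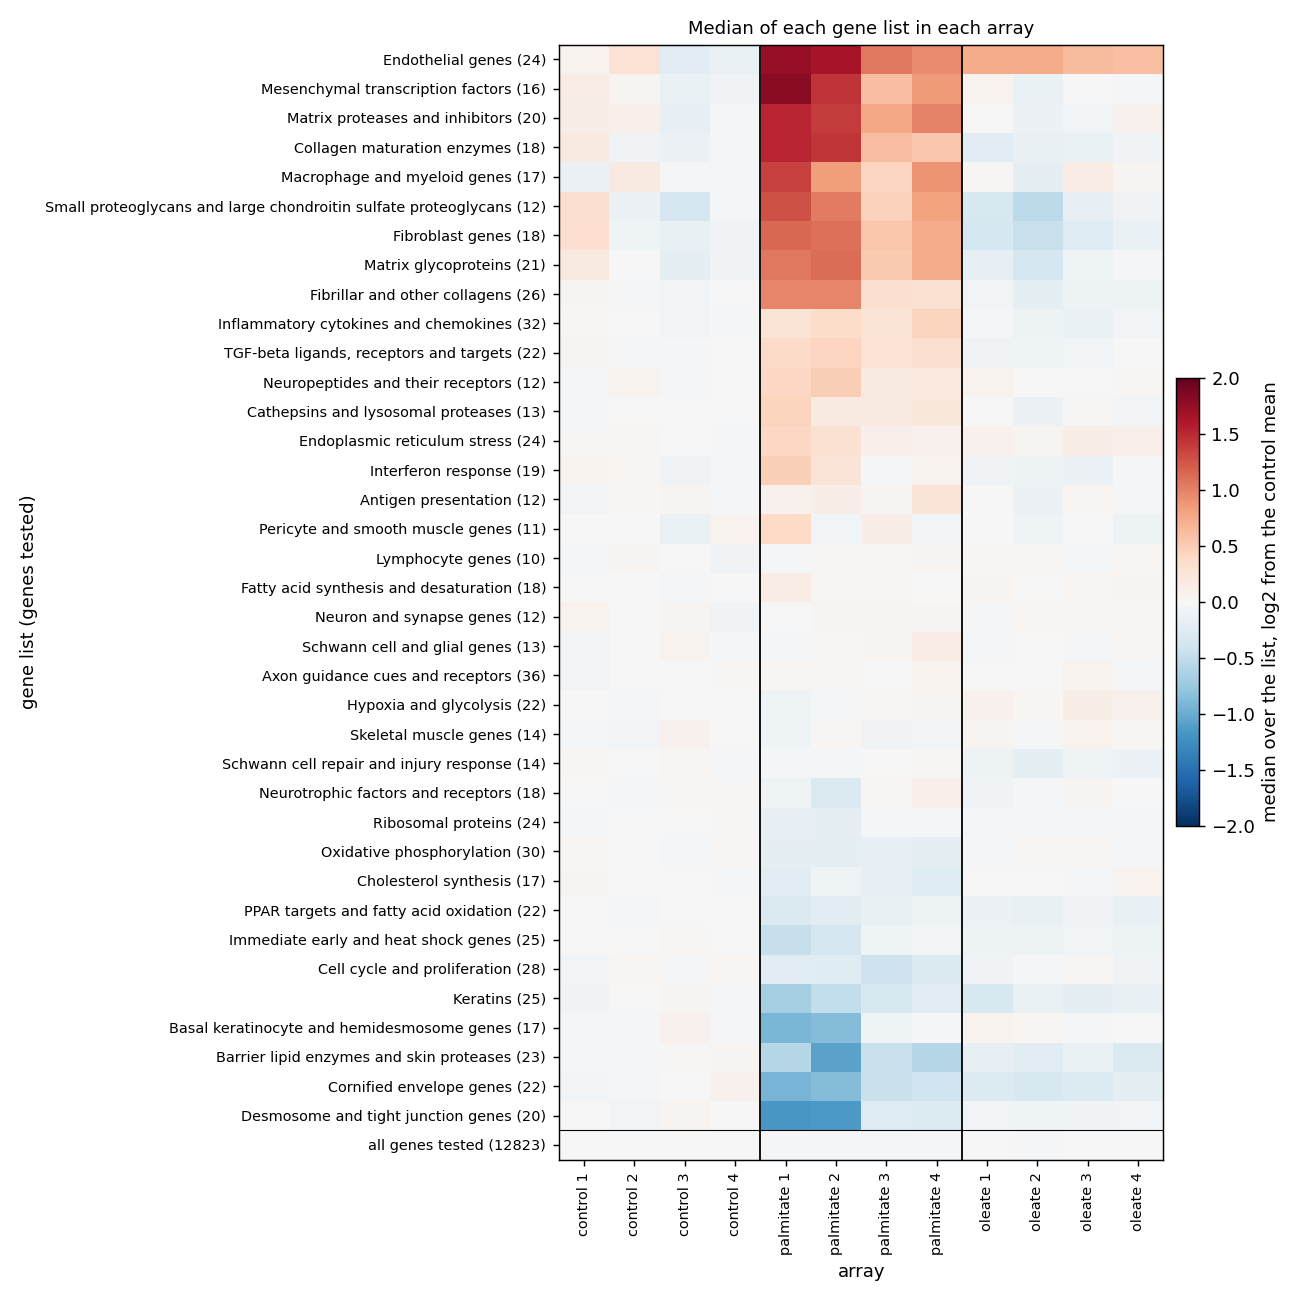
Median of each gene list, as log2 difference from the mean of the 4 control arrays (colour), in each control, palmitate and oleate array (columns); lists of at least 10 tested genes are ordered by their median difference, with the number of genes tested in brackets. Endothelial genes are at 0.94 or more in all 4 palmitate arrays, while desmosome genes are at -1.16 and -1.15 in arrays 1 and 2 and at -0.26 and -0.28 in arrays 3 and 4.

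Genes of the squamous epithelium fell, in 2 patterns that were told apart after the values were seen. The first was a fall seen in all 4 palmitate arrays, in cornified envelope genes, in keratins and in single genes such as Acer1. It was even in Acer1 and Sprr1a and larger in arrays 1 and 2 over the lists: the median was -0.93, -0.87, -0.44 and -0.40 for the cornified envelope genes and -0.66, -0.49, -0.32 and -0.22 for the keratins. Acer1, the alkaline ceramidase of differentiated epidermis, read 7.97, 7.60, 7.43 and 8.00 in control and 4.59, 4.51, 4.66 and 4.97 in palmitate arrays, lower by -3.07 ± 0.15 (limma adjusted p = 0.00011). All 4 palmitate values lay below 5.19, the level under which a gene's mean over the series kept it from the test, so that the size of the fall is uncertain and no fold is given. The oleate arrays were spread between, at 6.31, 5.82, 5.33 and 7.00. Sprr1a, a precursor of the cornified envelope, read 8.59, 9.01, 8.62 and 8.98 in control and 6.70, 6.43, 6.44 and 7.06 in palmitate arrays, lower by -2.14 ± 0.16. Ly6g6c, a small surface protein of the Ly6 family, fell to between 5.07 and 5.73 from 7.61 to 8.91. Control array 4 alone read 8.91, and the other control arrays were at or under 7.68. Mt4, the metallothionein of stratified squamous epithelium, read 10.04, 10.48, 10.01 and 10.41 in control and 7.94, 6.41, 7.86 and 8.40 in palmitate arrays, lower by -2.58 ± 0.38, with array 2 the lowest.

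By list, 9 of 22 cornified envelope genes fell and none rose, and 12 of 23 barrier lipid enzymes and skin proteases fell and 2 rose. In arrays 3 and 4 alone the counts were the same, 9 and 0, and 12 and 2. Klk10, a kallikrein protease, fell by 2.06 ± 0.18 log2 and Cyp4f39, which makes the omega-hydroxylated ceramides of the skin barrier, by 1.35 ± 0.16 log2. The plakins Evpl and Ppl, which anchor the cornified envelope, were lower by -1.24 ± 0.16 and -1.63 ± 0.22. Ugcg, which adds glucose to ceramide, went the other way and was 1.01 ± 0.10 higher, with 8.07 to 8.34 in control and 9.11 to 9.43 in palmitate arrays. Among 25 keratins 9 fell and none rose. Krt80 and Krt23 fell by 1.32 ± 0.09 and 0.99 ± 0.12 log2 and the hair and nail keratin Krt84 by 1.44 ± 0.15 log2. Krt4, the keratin of the upper layers of mucosal epithelium, had the lowest mean difference of all genes, -3.10 ± 1.28, but ranged from 5.73 to 11.98 over palmitate and from 10.21 to 12.65 over control arrays and did not pass (limma adjusted p = 0.087). It was named after its values were seen.

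The second pattern was a fall mainly in palmitate arrays 1 and 2, seen in genes of basal cells and of cell junctions. Desmosome and tight junction genes had medians of -1.16, -1.15, -0.26 and -0.28 in the 4 palmitate arrays, and 11 of 20 were called lower, none higher. Basal keratinocyte and hemidesmosome genes had medians of -0.92, -0.87, -0.08 and -0.04, with 6 of 17 lower and 1 higher. In arrays 3 and 4 alone the calls were 10 lower of the junction genes and 6 lower of the basal genes, at medians of -0.27 and -0.05. Krt6b, a keratin of wounded and mucosal epithelium, read 11.60, 11.87, 11.46 and 11.39 in control and 7.71, 7.79, 10.68 and 10.91 in palmitate arrays, lower by -2.31 ± 0.75 (limma adjusted p = 0.039). All 4 palmitate arrays were below control, which the choice of the lowest genes required. The difference was -0.79 in arrays 3 and 4 alone, and without array 1 or array 2 it was -1.79 or -1.81 and no longer passed. Krt15, a basal keratin, read 9.94, 9.75, 10.05 and 9.87 in control and 6.98, 7.04, 8.28 and 8.26 in palmitate arrays, lower by -2.26 ± 0.31.

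Otop3, a proton channel, Slc5a1, the sodium-glucose cotransporter, and Tmprss11a, a serine protease of squamous epithelia, shared that shape. Otop3 read 6.12, 5.99, 7.58 and 7.61 in palmitate arrays against 8.81 to 9.16 in control arrays, Slc5a1 6.69, 6.80, 8.55 and 8.63 against 9.63 to 9.91, and Tmprss11a 7.55, 7.44, 9.33 and 9.14 against 10.26 to 10.57. Kdf1, a keratinocyte differentiation factor, read 4.33 and 5.60 in arrays 1 and 2, 6.89 and 7.12 in arrays 3 and 4, and 7.95 to 8.48 in control arrays. S100a3, a calcium-binding protein of the hair cuticle, read 5.33, 4.61, 6.40 and 6.32 against 7.74 to 7.92. All 5 genes were named among those whose groups did not overlap, so even the higher pair of palmitate arrays had to lie below every control array. The tight junction genes Cldn4 and Ocln were lower by -1.58 ± 0.42 and -1.63 ± 0.37, and the desmosomal cadherin Dsg2 by -1.32 ± 0.24. Not every basal gene moved: Krt5, the main basal keratin, differed by 0.01 ± 0.05 and Krt14, its partner, by -0.28 ± 0.13, and neither passed. Among the 12 highest genes 5 differed by more than 1 log2 between the palmitate pairs, and among the 12 lowest 7 did.

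**Figure D3:**
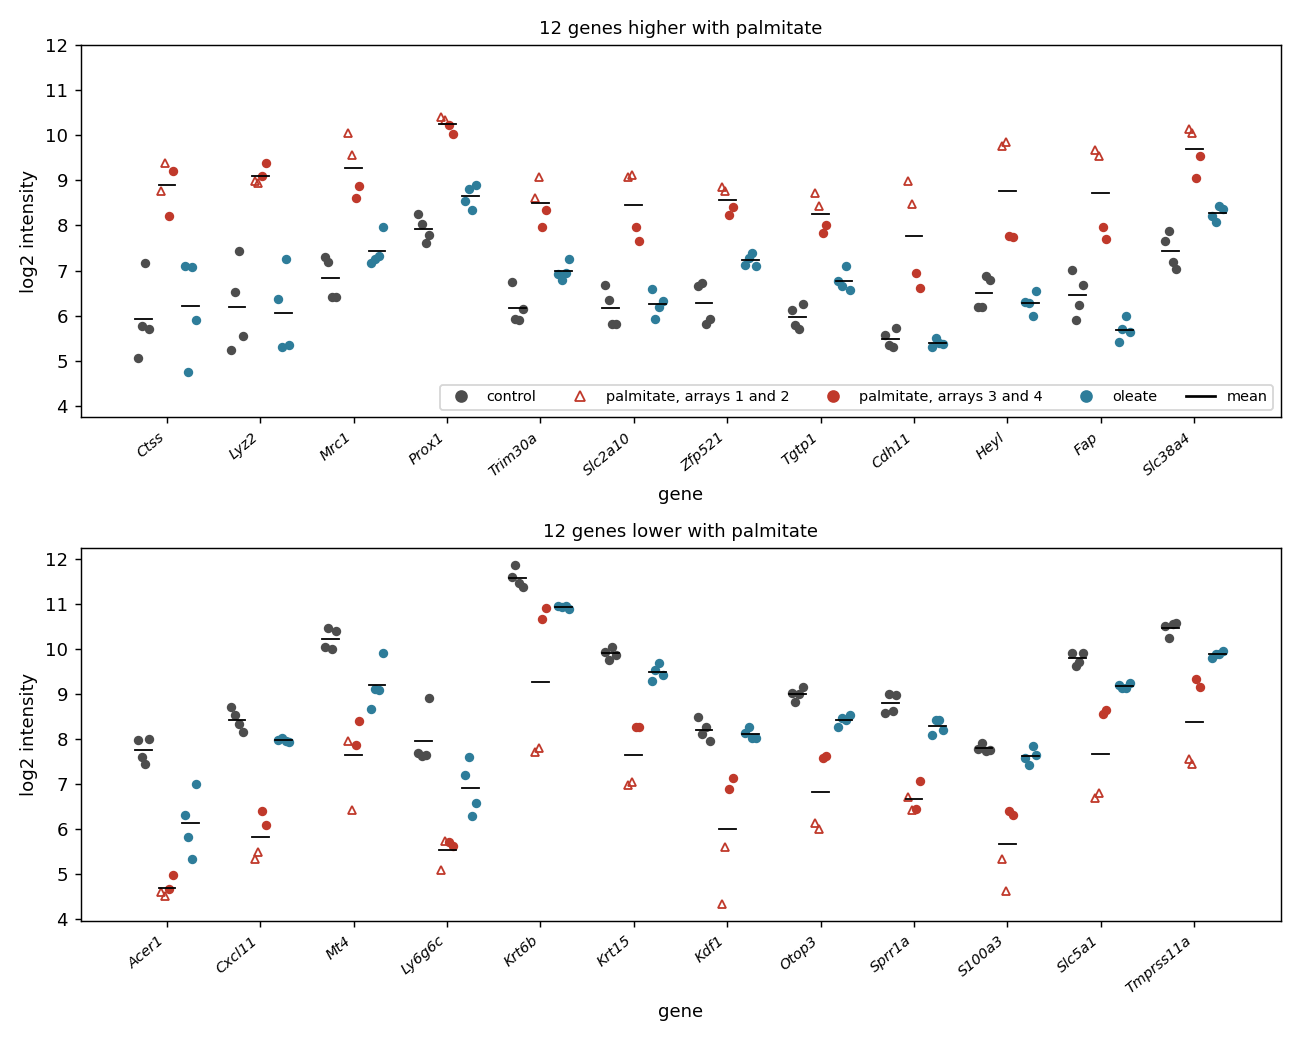
Log2 intensity in each array for the 12 genes most raised (top) and the 12 most lowered (bottom) with palmitate among called genes whose arrays did not overlap; black lines are group means, and open triangles mark palmitate arrays 1 and 2. Prox1, Lyz2, Acer1 and Sprr1a have palmitate arrays close together, whereas Heyl, Krt6b and Slc5a1 separate into the pairs 1, 2 and 3, 4; oleate arrays of Acer1 lie between both diets.

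Interferon-related genes moved in opposite directions. Trim30a, an interferon-inducible TRIM protein, read 6.75, 5.93, 5.90 and 6.15 in control and 8.60, 9.08, 7.96 and 8.35 in palmitate arrays, 2.31 ± 0.26 higher. Tgtp1, an interferon-inducible GTPase with a near-identical neighbouring copy, read 6.13, 5.79, 5.70 and 6.26 in control and 8.72, 8.43, 7.83 and 8.00 in palmitate arrays, 2.27 ± 0.21 higher. Cxcl11, a ligand of the chemokine receptor CXCR3 that interferon also induces, read 8.71, 8.53, 8.33 and 8.15 in control and 5.32, 5.49, 6.39 and 6.08 in palmitate arrays, lower by -2.61 ± 0.24 or 6.11-fold (limma adjusted p = 0.00046). These 3 genes were named among those whose groups did not overlap between diets. The oleate arrays of Cxcl11, at 7.93 to 8.03, lay just under the control range. Over the interferon response list 6 of 19 were higher and 3 lower, with a median of 0.14, against 16.6% higher and 21.7% lower over all genes. Ifit2 was 1.56 ± 0.23 higher and Rsad2 0.56 ± 0.10 higher, while Oasl2 was lower by -0.49 ± 0.05 and Ifih1 by -0.44 ± 0.08.

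The promoters of these genes are shown because 3 of the 12 highest genes, Ctss, Trim30a and Tgtp1, carry the same short motif. Of the 24 named genes, 8 of the 12 highest and 9 of the 12 lowest have a promoter in the RefSeq table of build GRCm38.p6. The 250 bases before each start were searched on both strands for the core of the interferon-stimulated element (GAAA, any 2 bases and GAAA again), and capitals mark its matches and those of the TATA box TATAAA, the AP-1 site TGANTCA and the STAT site TTCNNNGAA. A match to the interferon element is found in 2.98% of 32851 RefSeq promoters of this length. Counted by gene, at any of its listed starts, it occurred in 3 of the 8 highest genes with a promoter and in 0 of the 9 lowest. Some of these genes have several listed starts, so a count by gene is not the same measure as the share of promoters. A match is a description of these letters and shows no binding. Counted back from the start, in Ctss it begins at -21, in Trim30a at -36, read on the opposite strand, and in Tgtp1 at -77, the last just after a STAT match at -88. Trim30a has a second listed start, whose upstream bases hold no match. Sprr1a is shown from the lowered genes, for its 2 AP-1 matches, a motif present in 6.75% of promoters, at -146 and -116 and its TATA box at -43, a motif present in 12.4%. The windows are chr3:95526536-95526785 on the plus strand for Ctss, chr7:104465194-104465443 on the minus strand for Trim30a, chr11:48992247-48992496 on the minus strand for Tgtp1 and chr3:92485882-92486131 on the minus strand for Sprr1a.
Ctss: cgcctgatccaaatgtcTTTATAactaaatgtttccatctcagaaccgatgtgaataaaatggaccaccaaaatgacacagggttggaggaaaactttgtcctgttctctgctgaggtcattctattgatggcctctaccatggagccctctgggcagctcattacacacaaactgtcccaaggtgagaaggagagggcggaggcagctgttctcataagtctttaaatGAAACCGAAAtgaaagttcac
Trim30a: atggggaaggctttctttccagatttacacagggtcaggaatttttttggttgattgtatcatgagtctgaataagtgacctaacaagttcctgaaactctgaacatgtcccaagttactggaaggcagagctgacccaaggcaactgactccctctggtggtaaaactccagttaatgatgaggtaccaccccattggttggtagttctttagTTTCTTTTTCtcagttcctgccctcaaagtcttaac
Tgtp1: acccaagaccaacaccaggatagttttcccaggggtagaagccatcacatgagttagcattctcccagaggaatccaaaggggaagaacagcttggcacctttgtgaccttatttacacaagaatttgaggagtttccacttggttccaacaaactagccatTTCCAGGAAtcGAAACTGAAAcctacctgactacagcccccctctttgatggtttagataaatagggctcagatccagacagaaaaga
Sprr1a: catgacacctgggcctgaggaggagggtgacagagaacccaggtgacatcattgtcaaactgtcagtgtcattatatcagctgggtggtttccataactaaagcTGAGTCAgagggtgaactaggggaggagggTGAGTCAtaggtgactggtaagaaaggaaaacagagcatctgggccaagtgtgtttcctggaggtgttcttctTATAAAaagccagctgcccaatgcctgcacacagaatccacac
The lines above run from the base 250 before the start to the base just before it. The STAT match, at 7.02% of promoters, was present in Tgtp1 alone of the 17 genes.

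Of 32 cytokine and chemokine genes 17 were higher and 5 lower. Ccl27a, a keratinocyte chemokine that draws T cells to skin, read 8.33, 8.72, 8.27 and 8.43 in control and 10.56, 10.35, 10.09 and 10.15 in palmitate arrays, 1.85 ± 0.13 higher. Cxcl14, an epithelial and fibroblast chemokine, read 9.16, 9.24 and 9.07 in control arrays 1, 2 and 4, a little less in control array 3, and 10.76, 10.65, 10.14 and 10.55 in palmitate arrays, 1.41 ± 0.13 higher. Cxcl5, a neutrophil attractant, was 2.24 ± 0.44 higher and Tnf, tumour necrosis factor, lower by -0.94 ± 0.22, the extremes of the list that passed and chosen after their values were seen. Csf1, the growth factor of macrophages, was 0.56 ± 0.07 higher, and Lif, a cytokine of the interleukin 6 family made by injured nerve, 0.94 ± 0.13 higher.

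Genes tied to nerve moved one by one rather than together. Of 13 Schwann cell and glial genes 4 were higher and 2 lower, with a median of 0.03, and of 6 myelin genes none was higher and 2 were lower. Over all genes 16.6% were called higher and 21.7% lower. Gas7, a growth arrest gene of neurons, read 8.51, 8.41, 8.24 and 8.21 in control and 9.79, 9.64, 9.36 and 9.50 in palmitate arrays, 1.23 ± 0.11 higher. The sodium channel gene Scn7a of non-myelinating Schwann cells was 1.11 ± 0.24 higher, and the adhesion gene L1cam was lower by -0.52 ± 0.09. Erbb3, the neuregulin receptor of Schwann cells and also of epithelium, was lower by -1.59 ± 0.42 and was named after its value was seen. Pmp22, a myelin membrane protein, and Egr2, the factor that drives myelination and is also an early response gene, were lower by -0.32 ± 0.09 and -0.78 ± 0.23. In Egr2 palmitate arrays 1 and 2 read 9.81 and 9.72 and arrays 3 and 4 10.68 and 10.64, against 10.87 to 11.14 in control arrays.

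Of 14 genes of the Schwann cell repair and injury response 5 were higher and 5 lower. Gap43, a growth cone protein that denervated Schwann cells also make, read 9.34, 9.71, 9.04 and 8.86 in control and 10.96, 10.95, 10.34 and 10.57 in palmitate arrays, 1.47 ± 0.21 higher. Igfbp2 and Sox2 fell. Igfbp2, an insulin-like growth factor binding protein, read 11.16, 11.38, 11.44 and 11.39 in control and 9.63, 9.45, 10.16 and 10.18 in palmitate arrays, lower by -1.49 ± 0.17. Sox2, a factor of immature Schwann cells and of basal oral epithelium, read 6.50, 6.20, 6.32 and 6.01 in control and 4.31, 4.51, 4.99 and 4.63 in palmitate arrays, lower by -1.65 ± 0.16. Tubb3, the neuronal tubulin, was lower by -1.51 ± 0.23 and Map2, the dendritic microtubule protein, by -0.62 ± 0.14, the 2 neuronal genes lower of 12 tested, with Gap43 the only one higher.

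Genes of signals that act on axons were called in both directions, where 16.6% of all genes were called higher and 21.7% lower. Of 18 neurotrophic factors and receptors 5 were higher and 4 lower: Igf1 rose by 1.41 ± 0.17 and Gfra1, a receptor for GDNF, by 1.32 ± 0.23, while Artn, a ligand of the same family, and Ntrk2, the BDNF receptor, were lower by -0.81 ± 0.14 and -1.10 ± 0.20. Of 36 axon guidance genes 14 were higher and 8 lower. The largest difference was of Sema3a, a repellent of sensory axons named after its value was seen, 2.24 ± 0.29 higher, and Sema6a, another semaphorin, was 1.16 ± 0.12 higher. Of 12 neuropeptide genes and receptors 3 were higher and none lower, with the neuropeptide Nmb 0.88 ± 0.12 and the PACAP receptor Adcyap1r1 0.78 ± 0.14 higher beside Calcrl. Gal, the peptide galanin, read 5.92 to 6.30 in control and 6.06 to 6.43 in palmitate arrays and did not pass (0.08 ± 0.11, limma adjusted p = 0.59).

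Lipid genes changed modestly, and Cd36, the fatty acid receptor that other groups of the series target, did not pass the test. Cd36 read 5.04, 5.35, 4.99 and 5.22 in control and 6.02, 5.42, 5.29 and 5.07 in palmitate arrays, a difference of 0.30 ± 0.19 (limma adjusted p = 0.24), and 0.82 in the oleate arrays over the same control. Palmitate arrays 1 and 2 were above the control range, array 1 the furthest. Of 22 PPAR targets and fatty acid oxidation genes 3 were higher and 10 lower, with a median of -0.20 (2 and 8 in arrays 3 and 4 alone). Angptl4, a PPAR target that inhibits lipoprotein lipase, read 9.79, 9.60, 9.69 and 9.69 in control and 10.23, 10.27, 10.24 and 10.24 in palmitate arrays, 0.55 ± 0.06 higher, while the oleate arrays read 8.99 to 9.34. Pdk4, another PPAR target, which restrains glucose oxidation, was lower by -1.77 ± 0.20, with palmitate arrays at 5.21, 5.13, 5.20 and 6.01 and control arrays at 7.00 to 7.46. The oxidation enzymes Acaa2 and Hadh were lower by -0.61 ± 0.08 and -0.86 ± 0.14. Fatty acid synthesis gave 5 of 18 higher and 3 lower, with Acly 0.42 ± 0.08 and Fads3 1.07 ± 0.24 higher. Cholesterol synthesis gave 1 of 17 higher and 5 lower, with Fdft1, squalene synthase, at 7.79 to 8.02 in control and 7.23 to 7.30 in palmitate arrays.

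Small falls of the list median were found in all 4 palmitate arrays for respiration genes, where they were even, and for proliferation genes, where array 3 fell the most. Of 30 oxidative phosphorylation genes 28 had negative differences and 15 were called lower, none higher, and the list's median was -0.18, -0.19, -0.17 and -0.17 in the 4 palmitate arrays against -0.02 to 0.02 in the oleate arrays. Ndufb5, a subunit of complex I, read 9.60 to 9.73 in control and 9.20 to 9.25 in palmitate arrays, lower by -0.45 ± 0.05. Of 28 cell cycle genes 16 were lower and none higher, and the list's median was -0.22, -0.24, -0.41 and -0.28. Cdc20, an activator of mitotic exit, read 9.62, 9.78, 9.74 and 9.70 in control and 8.87, 8.96, 8.88 and 9.09 in palmitate arrays, lower by -0.76 ± 0.07. Mki67, the proliferation marker, was lower by -1.02 ± 0.11 and Top2a, the mitotic topoisomerase, by -0.81 ± 0.10. Mki67 read 9.14 and 9.11 in palmitate arrays 1 and 2 and 9.46 and 9.59 in arrays 3 and 4. In arrays 3 and 4 alone 15 cell cycle genes and 9 oxidative phosphorylation genes were called lower.

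Alas2, the first enzyme of haem synthesis in red cells, was among the most even changes: 8.93, 9.16, 9.05 and 9.06 in control and 11.37, 11.41 and 11.11 in palmitate arrays 1 to 3, with array 4 slightly lower, 2.17 ± 0.10 higher or 4.50-fold (limma adjusted p = 0.00011). Of 4 red blood cell genes 3 were higher, Hba-a1, an alpha globin with a near-identical copy, by 0.39 ± 0.05. Of 24 endoplasmic reticulum stress genes 8 were higher and 2 lower (5 and 3 in arrays 3 and 4 alone), with medians of 0.42, 0.30, 0.11 and 0.08 in the 4 palmitate arrays. Herpud1, a degradation factor of this response, was 0.72 ± 0.15 higher. Among hypoxia and glycolysis genes 5 of 22 were higher and 3 lower (2 and 1 in arrays 3 and 4 alone), against 16.6% and 21.7% over all genes. Pfkfb3, a regulator of glycolysis, was 0.73 ± 0.10 higher. Of 24 ribosomal protein genes 2 were lower and none higher, Rpl14 by -1.09 ± 0.17 and Rps18 by -0.22 ± 0.07. Of 7 adipocyte genes 3 were higher, Fabp4, also an endothelial gene, by 0.63 ± 0.20. None of 14 skeletal muscle, 3 salivary gland or 1 melanocyte genes tested was called. The transporters Slc2a10 for glucose and Slc38a4 for amino acids completed the 12 highest genes: Slc2a10 read 5.83 to 6.67 in control and 9.07, 9.11, 7.96 and 7.66 in palmitate arrays, and Slc38a4 7.04 to 7.88 and 10.13, 10.04, 9.04 and 9.54.

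The difference between diets was then tested against the same difference in the other experiments. It departed from that of the second VDH15 experiment in 1981 genes (15.4%), 867 above and 1114 below, and from that of the SCC25 experiment in 1278 genes (9.97%), 450 above and 828 below. In 847 genes it departed from both with the same sign. The first experiment enters both tests, so that they are not independent. The labels give each group of the second VDH15 and SCC25 experiments 1 biological replicate as well, so these p-values also measure only the spread between arrays. With palmitate arrays 3 and 4 alone the counts were 1269 and 941, and without palmitate array 3 or array 4 the SCC25 count was 2102 or 2004.

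Some collagen genes, the main fibrillar ones among them, had smaller differences here than in the other experiments. Col1a1 was 0.50 ± 0.10 higher here, 2.00 higher in the second VDH15 and 4.49 higher in the SCC25 experiment, a departure of -1.50 (limma adjusted p = 0.0015) and -3.99 (limma adjusted p = 1.1e-07). Col3a1 was 0.34 ± 0.09, 1.54 and 4.75 higher, and Col6a3 1.08 ± 0.43, 3.09 and 3.67. Of 26 collagens 6 departed downward from the second VDH15 experiment and 9 from SCC25, and none upward. Col23a1, 2.11 ± 0.18 higher here, was 1.25 and 1.23 higher in the others, and neither departure passed. Col1a1 and Col3a1 lay between 12.02 and 12.41 in every control array. Mmp13, the interstitial collagenase, differed by 0.50 ± 0.26 here and by 2.44 and 2.48 in the others. Fstl1, a secreted mesenchymal glycoprotein, and Ptx3, a pentraxin of inflamed stroma, were 0.83 ± 0.15 and 0.99 ± 0.21 higher here and 3.91 and 4.15 higher with SCC25. Rgs5 differed by -0.88 ± 0.47 here and by 3.26 with SCC25. Of 18 collagen maturation enzymes, 6 departed upward and none downward from the second VDH15 experiment, and 1 each way from SCC25, where Lox was 3.18 higher against 1.36 here.

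Proliferation genes departed downward. The median of the cell cycle list was -0.28 here, 0.17 in the second VDH15 and 0.07 in the SCC25 experiment, and 17 and 10 of its 28 genes departed downward, none upward. Mki67 differed by -0.02 and -0.03 in the other experiments, a departure of -1.01 ± 0.15 and -0.99 ± 0.15. Of 17 myeloid genes, 4 departed upward and 1 downward from the second VDH15 experiment, and 5 and 1 from SCC25. Among them C1qc differed by 0.50 and 0.12 in the others, neither of which passed, 1.05 ± 0.26 and 1.44 ± 0.26 less than here. For Lyz2 and Mrc1 no departure passed the test. The basal keratin Krt15 fell here by 2.26 log2 and differed by -0.54 and 0.10 in the others, and Sox21, a transcription factor of hair and squamous epithelium, was lower by -2.04 ± 0.33 here and differed by -0.21 and 0.07. For Acer1 no departure passed the test: it differed by -2.22 in the second VDH15 and by -3.06 in the SCC25 experiment, with departures of -0.85 ± 0.85 and -0.01 ± 0.85.

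Most large differences had the same sign in the other experiments: of the 982 genes called here at over 1 log2, 908 had the same sign in the second VDH15 and 912 in the SCC25 experiment. Of all genes called here, 88 were called in the opposite direction in the second VDH15 experiment and 25 in the SCC25 experiment. Chil1, a secreted chitinase-like protein of macrophages and inflamed epithelium, read 8.80, 8.43, 7.27 and 7.61 in control and 9.62, 9.78, 9.66 and 10.27 in palmitate arrays, 1.80 ± 0.33 higher, but differed by -1.38 in the second VDH15 and -1.13 in the SCC25 experiment. The departures were 3.18 (limma adjusted p = 0.0022) and 2.94 (limma adjusted p = 0.0048). Cxcl14 was 1.41 ± 0.13 higher here and differed by -1.10 in the second VDH15 and 0.18 in the SCC25 experiment. Alas2 was 2.17 ± 0.10 higher here and 1.97 higher with SCC25, but differed by -0.35 in the second VDH15 experiment. Ugcg, higher by 1.01 ± 0.10 here, differed by -0.54 and -0.75 in the others. Rassf9, a Ras-association protein of epidermal homeostasis, rose by 1.32 ± 0.20 here and differed by -0.31 and -1.22. Ada, adenosine deaminase, was 0.55 ± 0.16 higher here and differed by -1.47 and -1.91.

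The other genes named for a departure are given by their own values. Sprr3, a cornified envelope precursor, read 4.79 to 4.99 in all 8 arrays, below the 5.19 level, and entered the test only through arrays of other groups. It differed by -2.25 in the second VDH15 experiment, and its departure says nothing about a change here. Krt36, a hair keratin, was lower by -2.04 ± 0.36 here and by -4.83 with SCC25, and Serpinb3a, a squamous serpin with close relatives, by -0.71 ± 0.20 and -3.12. Tmigd1, a membrane protein with immunoglobulin domains, read 4.92, 4.94, 6.57 and 6.33 in palmitate arrays against 6.65 to 6.73 in control arrays, did not pass here (-0.98 ± 0.37, limma adjusted p = 0.068), and was 1.17 higher in the second VDH15 experiment. Its low palmitate arrays were 1 and 2. Cxcl11, lower by -2.61 here, differed by -0.39 and -0.17 in the others, departures of -2.22 and -2.44. Among the genes named for a departure, Mmp13, Krt36, Ada and Serpinb3a lost the call in at least 1 alternative, Serpinb3a with an adjusted p from limma of up to 0.11 when its probe sets were averaged.

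**Figure D4:**
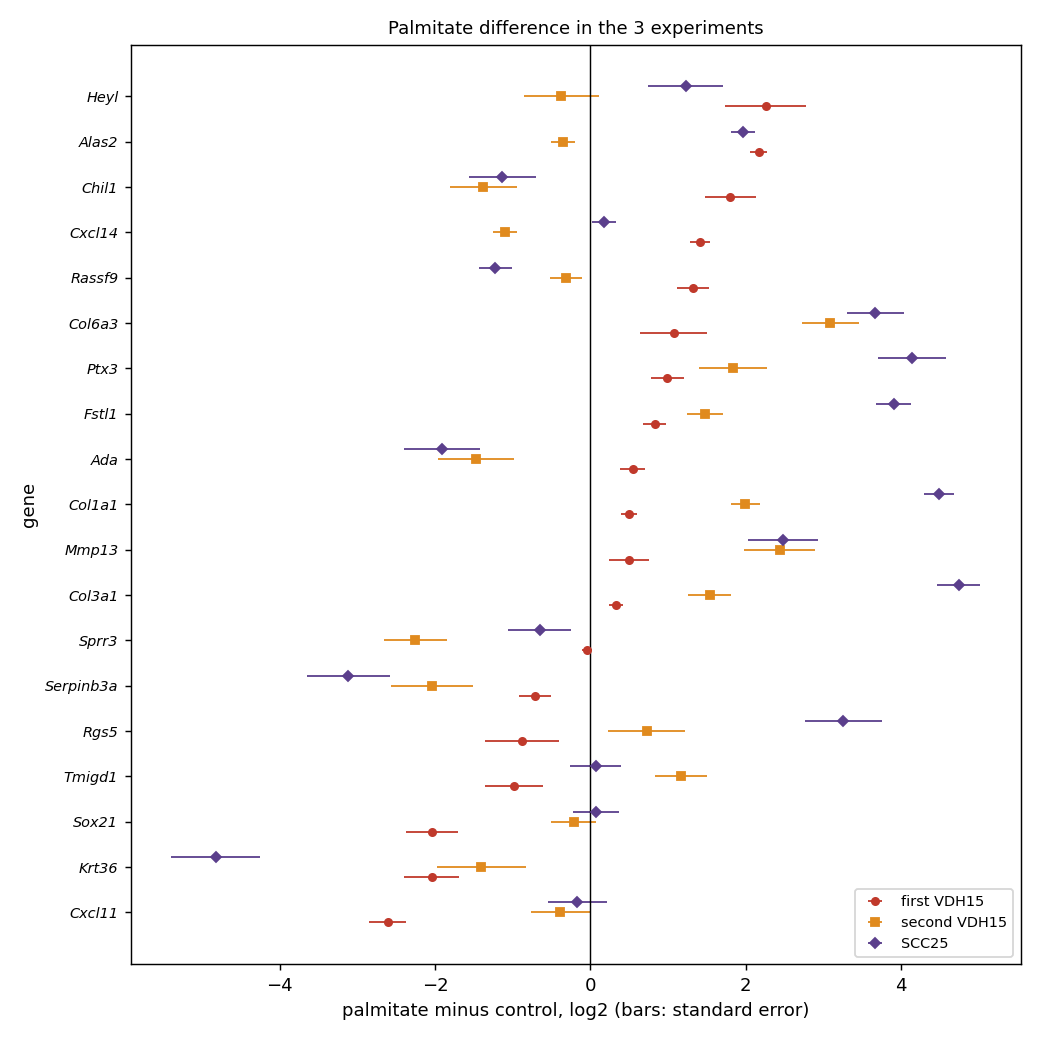
Palmitate minus control difference (log2, with standard error) in the first VDH15, second VDH15 and SCC25 experiments for the 19 genes with the largest departures in either test. The standard error of the first experiment comes from its own 8 arrays and the others from the fit of 20 arrays; Chil1, Cxcl14 and Rassf9 lie above 0 in the first VDH15 and below 0 in the second, and Col1a1 and Col3a1 rise from 0.50 and 0.34 in the first to 4.49 and 4.75 with SCC25.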

How the data were processed

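RNA of 36 samples was hybridised to mouse expression arrays. The deposited values were log2 intensities made by the authors with the affy package and RMA, per the submitters' processing notes, with no versions given. Batch adjustment is not described in the sources used here, but terms for hybridisation batch, scan batch and cell line fitted beside diet and shRNA were within 1e-06 of 0 in 100% of the 45141 probe sets, against 0.00222% when diet and shRNA were left out of the fit. Values adjusted in this way carry less spread between arrays than unadjusted ones.

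Of the probe sets, 28898 had 1 listed gene, 551 several and 15692 none, and 28689 of the first matched a RefSeq symbol or identifier. Each of 17097 genes was read from its probe set with the highest mean, and genes in the lowest 25% of mean level over the series, under 5.19 log2, were left out, which kept 12823. The number of arrays limits the precision. Palmitate and control were compared with limma 3.58.1 in R 4.3.3 (lmFit and eBayes, 8 arrays, no covariate) and Benjamini-Hochberg adjustment at 0.05, tested on simulated data. Departures from the other experiments were contrasts in 1 fit of 20 arrays. The array numbers did not pair the samples.

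The text names the 12 highest and 12 lowest called genes whose arrays did not overlap, the 5 highest and 5 lowest of each departure, up to 4 genes of each list with the smallest p, and Cd36 and Gal, passing over provisional names; others are said to be chosen after their values were seen. The comparison, gene lists and rule were chosen with earlier results of these data known. Probe sets of Lyz2, Trim30a, Tgtp1, Hba-a1 and Serpinb3a may read related genes. Alternatives covered the filter, probe sets, array weights, scan batch, replicate block, spread and left-out arrays.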

Additional observations from a re-analysis of the deposited data

Results flagged for a closer look

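A value stood apart from the other 3 of its group by Dixon's test in 7 cases, each given as its gap divided by the range of the group. These were Ly6g6c in the control arrays (0.941) and in the palmitate arrays (0.839), and the medians of the fibroblast genes (0.847), basal keratinocyte genes (0.889), myelin genes (0.912) and hypoxia and glycolysis genes (0.857) in the control arrays and of the cathepsins (0.906) in the palmitate arrays. Chance marks about 1 in 20 groups. The test was run on the control and the palmitate arrays of the 12 highest and 12 lowest genes and of the gene lists. Several cases are therefore expected by chance alone, and the 7 were not told apart from these.

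Departures are listed for the genes named for the highest or lowest differences or for a departure; genes named from the lists were not gone through here. By limma's contrast at an adjusted p under 0.05, the palmitate effect departed from that of the second VDH15 experiment in 24 of them. It was above it in Chil1 (3.18), Heyl (2.63), Alas2 (2.52), Cxcl14 (2.51), Sprr3 (2.21, with all 8 arrays here below 5.19), Ada (2.01), Tgtp1 (1.76), Fap (1.65), Rassf9 (1.64), Slc2a10 (1.61), Slc38a4 (1.60), Zfp521 (1.30), Prox1 (1.29) and Trim30a (1.28). It was below it in Cxcl11 (-2.22), Tmigd1 (-2.15), Col6a3 (-2.02), Mmp13 (-1.94), Sox21 (-1.82), Krt15 (-1.72), S100a3 (-1.60), Tmprss11a (-1.58), Col1a1 (-1.50) and Col3a1 (-1.20).

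The departure from the SCC25 experiment passed the same test in 20 of them. The effect was above it in Chil1 (2.94), Krt36 (2.78), Rassf9 (2.55), Ada (2.45), Serpinb3a (2.41), Slc2a10 (1.31) and Cxcl14 (1.23). It was below it in Col3a1 (-4.41), Rgs5 (-4.14), Col1a1 (-3.99), Ptx3 (-3.15), Fstl1 (-3.08), Col6a3 (-2.60), Cxcl11 (-2.44), Krt15 (-2.36), S100a3 (-2.16), Sox21 (-2.11), Otop3 (-2.07), Mmp13 (-1.98) and Tmprss11a (-1.93). The first experiment enters both tests.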

How the results depend on the processing

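No gene of the 24 and none named for a departure changed sign under the alternatives run, and 7 of the 40 list medians recomputed did, each of them at most 0.11 from 0 in the fit reported. For the 24 genes the sign was fixed by their choice in every alternative but the mean of all probe sets. Groups of arrays that do not overlap keep the sign of their difference in any subset. Against 4908 genes called with palmitate, the total called was 4040 with scan batch as a block (4038 shared with the 4908), 4600 with array weights (4326), 5106 with the mean of all probe sets (4469, 1 of them with the other sign), 5939 with the 12 arrays of the experiment (4893) and 6272 with 36 arrays sharing the spread (4808), 5009 of 17097 genes without the filter (4685), 3950 with palmitate arrays 3 and 4 alone (3615), and 3446 to 5238 with 1 array left out. Within scan batch 2 and within scan batch 3, each 2 arrays against 2, limma called 0 genes, with 3034 and 3249 at an unadjusted p under 0.05. Departures from the second VDH15 experiment numbered 3113 with 36 arrays, 1269 with palmitate arrays 3 and 4 alone and 1446 to 2804 with 1 array left out, and those from SCC25 2389, 941 and 855 to 2102. Array numbers were shared between the diets but did not pair them (r of 0.06, 0.07, 0.34 and 0.05, with 1 of 4 arrays closest to its own number), and the replicate block gave 4448, 1697 and 1062. Within a scan batch, where 2 arrays stood against 2, none of the 24 genes was called. The differences in batches 2 and 3 were close in Ctss (2.87 and 3.06) and Prox1 (2.29 and 2.37). They lay further apart in Mt4 (-1.86 and -3.31), Kdf1 (-2.65 and -1.79) and Sprr1a (-1.72 and -2.56). With equal numbers of arrays in both batches, their average is the difference over all arrays by design. Krt6b alone lost its call with the scan block, with array weights (-1.39), without the filter, and without any 1 control array or palmitate array 1 or 2. The cause of these shifts was not tested. Arrays of 1 biological replicate a diet limit what can be read from any count.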
